A study of Homo sapiens with 9 samples.

Results

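Expressed antisense genes of T47D breast cancer cells were examined together with the sense genes they are named after. A gene counted as antisense when its name on the array ended in -AS1, -AS2 or -AS3, and as expressed when its probe was well above background on all 3 arrays of at least 1 line. Of 936 such names (1559 probes), 432 were expressed and are described here, 412 of them ending in -AS1, 17 in -AS2 and 3 in -AS3. T47D is a luminal breast cancer cell line. T47D-PA6 cells carried the PA6 fragment with full-length PTH-AS, a noncoding RNA from downstream of the parathyroid hormone gene, T47D-PA5 cells carried the PA5 fragment with incomplete PTH-AS, and T47D-VC1 cells carried the empty vector. All 3 lines were stably transfected and selected with G418. For PA5 and PA6, 1 of the selected high expressers was carried forward. Every group is a single line. RNA of each line was measured on 3 one-colour arrays, 9 in all, and between 44.0% and 48.0% of the probes of an array were well above background. The array carried 0 probes named PTH-AS, so the transfected RNA itself was not measured.

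A natural antisense transcript is read from the DNA strand opposite to another gene. Some begin back to back with the sense gene at a shared, bidirectional promoter, some overlap its 5′ end, and some begin inside it or beyond its 3′ end. Antisense RNAs are mostly long noncoding RNAs, often of low abundance and nuclear, and single ones are known to act on their sense gene through chromatin, splicing or RNA pairing, while others follow the activity of a shared promoter. In the current RefSeq gene list, 415 of the 432 genes were lncRNAs, 9 were protein-coding, 5 were transcribed pseudogenes, 2 were antisense RNAs and 1 had no entry. By current name 356 still ended in -AS and a number, 56 were divergent transcripts ending in -DT, and 20 had another name.

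The array measured each antisense RNA with a strand-specific probe of 60 bases. The probes of the 8 genes to which the pairs below return most often are shown, because they fix which strand and which place was measured. All are given in lower case, 5′ to 3′, with hg19 coordinates from the array files. UNC5B-AS1 was probed at chr10:72977006-72977065 on the minus strand, PSMB8-AS1 at chr6:32813210-32813269 on the plus strand, MKX-AS1 at chr10:28056656-28056715 on the plus strand and NR2F1-AS1 at chr5:92746995-92747054 on the minus strand. CNTFR-AS1 was probed at chr9:34582569-34582628 on the plus strand, BZRAP1-AS1 at chr17:56431001-56431060 on the plus strand, VPS13A-AS1 at chr9:79791672-79791731 on the minus strand and FLVCR1-AS1 at chr1:213031201-213031260 on the minus strand.
UNC5B-AS1: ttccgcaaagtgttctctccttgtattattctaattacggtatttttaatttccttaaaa
PSMB8-AS1: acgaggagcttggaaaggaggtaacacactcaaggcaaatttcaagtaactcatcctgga
MKX-AS1: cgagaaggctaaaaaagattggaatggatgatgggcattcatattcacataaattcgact
NR2F1-AS1: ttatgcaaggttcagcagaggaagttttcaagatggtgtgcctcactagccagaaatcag
CNTFR-AS1: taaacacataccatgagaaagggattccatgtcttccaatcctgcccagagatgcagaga
BZRAP1-AS1: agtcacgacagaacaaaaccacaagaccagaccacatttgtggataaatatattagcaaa
VPS13A-AS1: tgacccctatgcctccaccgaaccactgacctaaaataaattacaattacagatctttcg
FLVCR1-AS1: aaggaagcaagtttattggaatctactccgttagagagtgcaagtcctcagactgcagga

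These genes were chosen by detection above background, so its counts are a description. Of the 432, 386 passed the background mark on all 9 arrays and 46 did not. The number above background on all 3 arrays of a line was 413 in T47D-VC1 cells, 404 in T47D-PA5 cells and 404 in T47D-PA6 cells, and 1 gene, JAZF1-AS1, was above background on the 3 T47D-PA6 arrays and on none of the others. Just inside the rule were 29 genes above background on all 3 arrays of 1 line only, with mean signals from 12.1 to 41.5 (median 17.6). Just outside it were 34 names that reached at most 2 of the 3 arrays of any line, with mean signals from 8.64 to 26.6 (median 14.2). A further 88 names reached 1 array of a line at most, and 382 were above background on no array. The median SD between arrays of a line, on the log2 scale, was 0.211 in T47D-VC1 cells, 0.176 in T47D-PA5 cells and 0.207 in T47D-PA6 cells.

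Of the 432 antisense genes, 424 had a probe for the gene named before the suffix, and for 366 that sense gene passed the same detection rule. The other 58 sense genes on the array did not pass it, and 8 names had no sense gene on the array, such as HOXB-AS1, which is named after a gene cluster. The 2 probes of a pair lay on opposite strands in 365 of the 366 pairs, at a median distance of 28.3 kb and a range from 56 bp to 728 kb. HNRNPU-AS1 was the exception, and its accession is now listed as HNRNPU itself. Start sites of both genes were in the RefSeq table for 292 of the 432 antisense genes, whether or not the sense gene was tested. In 125 of these the genes started divergently within 1 kb of each other, in 53 their 5′ ends overlapped, in 105 the antisense start lay further inside the sense gene or beyond it, and in 9 it lay further upstream.

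The markers of luminal breast cells were present in all 3 lines. All 9 luminal markers tested, ESR1, PGR, GATA3, FOXA1, KRT8, KRT18, KRT19, EPCAM and CDH1, were well above background in every line, with summed signals of 504900 in T47D-VC1 cells, 521600 in T47D-PA5 cells and 510200 in T47D-PA6 cells. Most of each sum was KRT19, at 301400, 301400 and 292600. Quantile normalization gives probes of the same rank the same value, so these sums were not read as a comparison of the lines. PGR, the progesterone receptor, was lower in T47D-PA6, at a mean of 7201 against 15080 in T47D-VC1 (log2 fold change −1.07, limma adjusted p = 0.00726) and 11590 in T47D-PA5 (−0.69, limma adjusted p = 0.0367). Markers of other cell types were sparse, with 1 of 3 basal, 1 of 4 fibroblast, 2 of 3 blood cell and 1 of 2 endothelial markers above background in each line. KRT5, COL1A2, DCN, LUM, CD3E and PECAM1 were above background on 0 arrays. In each line, replicate 1 was scanned in an earlier run and replicates 2 and 3 in a later one, so the difference within each run is given beside the results that turn on it. Slides were not balanced between the lines. Replicate 2 of T47D-VC1 and of T47D-PA5 was on slide 2, while replicate 2 of T47D-PA6 was on slide 3 with replicate 3 of each line. In bulk RNA, fewer cells that hold a transcript and less of it per cell cannot be told apart.

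The first comparison asked which antisense genes differed between the line with full-length PTH-AS and the vector control. Netrin receptor antisense UNC5B-AS1, cytokine receptor antisense CNTFR-AS1 and immunoproteasome antisense PSMB8-AS1 were among those that rose, and antisense genes of the transcription factors MKX and NR2F1 were among those that fell. Over the 386 genes above background on all 9 arrays, 14 were called higher in T47D-PA6 (3.63%) and 24 lower (6.22%), where called means an adjusted p under 0.05 in limma. Of all 18244 genes above background on all 9 arrays, 4.30% were called higher and 5.20% lower. Over all 432 genes the counts were 16 higher (3.70%) and 25 lower (5.79%), against 4.69% and 5.34% of the 20099 genes tested. The shares of antisense genes were thus near those of all genes. Their median log2 fold change was −0.07 over the 386, beside −0.03 over all such genes, and 90% of them lay between −0.75 and 0.65. Unadjusted, 124 of the 432 had p under 0.05. This was not counted over all genes, so it is not read as a trait of antisense genes. The number called was sensitive to the model, with 90 called in a fit with the scan run as a block, 66 without T47D-PA6 replicate 1, 12 to 15 without T47D-PA6 replicate 2 or 3 or T47D-VC1 replicate 3, 21 without T47D-VC1 replicate 2 and 24 without T47D-PA5 replicate 3.

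UNC5B-AS1, antisense to a receptor for netrins, had the largest rise. Its normalised signal was 27.7, 47.5 and 42.5 on the T47D-VC1 arrays, 151, 180 and 204 on the T47D-PA5 arrays and 208, 348 and 360 on the T47D-PA6 arrays. The 3 lines did not overlap, with the vector control lowest. Over T47D-VC1 the log2 fold change of T47D-PA6 was 2.95 ± 0.27 (SE, n = 3 arrays per line, limma adjusted p = 0.000727), 2.91 in the earlier scan run and 2.98 in the later one. UNC5B itself had signals of 235, 128 and 126 in T47D-VC1 cells, 272, 121 and 142 in T47D-PA5 cells and 523, 582 and 586 in T47D-PA6 cells. It was high in T47D-PA6 alone, where its log2 fold change against T47D-VC1 was 1.85 ± 0.33 (limma adjusted p = 0.0124), while T47D-PA5 overlapped the control. The 12 other genes within 1 Mb of the antisense probe had a median log2 fold change of 0.10, and 1 of them was called higher.

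CNTFR-AS1 is antisense to the receptor subunit that binds ciliary neurotrophic factor. Its signal was 40.2, 29.1 and 30.2 in T47D-VC1 cells, 256, 323 and 377 in T47D-PA5 cells and 286, 127 and 98.5 in T47D-PA6 cells. Both transfected lines lay above the control on every array, and T47D-PA6 overlapped T47D-PA5. For T47D-PA6 the log2 fold change was 2.22 ± 0.36 (limma adjusted p = 0.00881), 2.83 in the earlier run and 1.92 in the later one. CNTFR had signals of 16.6, 19.8 and 13.5 in T47D-VC1 and of 35.8, 14.6 and 10.9 in T47D-PA6, so the lines overlapped (log2 fold change 0.12, adjusted p = 0.88). It was not above background on all 9 arrays. Its 10.9 on T47D-PA6 replicate 3 was under 11.4, the lowest signal above background on that array.

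PSMB8-AS1 starts back to back with PSMB8, a catalytic subunit of the immunoproteasome, which makes peptides for MHC class I molecules. The antisense signal was 24.4, 42.6 and 34.5 in T47D-VC1 cells, 34.9, 64.5 and 55.8 in T47D-PA5 cells and 63.3, 88.2 and 101 in T47D-PA6 cells. The T47D-PA6 arrays lay above all control arrays, and those of T47D-PA5 overlapped both. The log2 fold change was 1.32 ± 0.29 (limma adjusted p = 0.0268), 1.38 in the earlier run and 1.30 in the later one. PSMB8 rose by 2.02 ± 0.17 (log2, limma adjusted p = 0.000607), from 527, 487 and 486 in T47D-VC1 to 1749, 2404 and 1987 in T47D-PA6, with T47D-PA5 between them at 684, 925 and 1023. Of the 64 other genes within 1 Mb, in the MHC region, 8 were called higher and 1 lower, with a median log2 fold change of 0.10.

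Other rises were in antisense genes whose partner was not tested or did not pass the test. SOCS2-AS1, antisense to a suppressor of cytokine signalling, had signals of 29.3, 26.9 and 31.0 in T47D-VC1 cells, 33.0, 36.0 and 43.7 in T47D-PA5 cells and 83.1, 83.5 and 81.0 in T47D-PA6 cells. Its T47D-PA6 arrays stood together above all others, with a log2 fold change of 1.51 ± 0.12 (limma adjusted p = 0.000506). SOCS2 was not detected on all arrays of any line and was not tested. UBXN10-AS1, whose accession is now listed under the phospholipase gene PLA2G2C, rose by 2.07 on the log2 scale (adjusted p = 0.0148) with UBXN10 likewise not tested. TGFB2-AS1, whose 5′ end overlaps that of the growth factor TGFB2, rose by 0.83 (adjusted p = 0.0112) with its partner also not tested. C5orf66-AS1 rose by 1.27 (adjusted p = 0.0291) while C5orf66, now listed as PITX1-AS1, had a log2 fold change of 0.09. TP73-AS1, named after a p53 family transcription factor and now called GFOD3P, rose by 0.83 (adjusted p = 0.029), with 0.68 and 0.62 on its other 2 probes, while TP73 had a log2 fold change of 0.05. JAZF1-AS1, for which 0 of 3 T47D-VC1 arrays passed the background mark, exceeded that line in T47D-PA6 by at least 1.26-fold. It was included through T47D-PA6 alone, so this is a description and not a test.

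**Figure D1:**
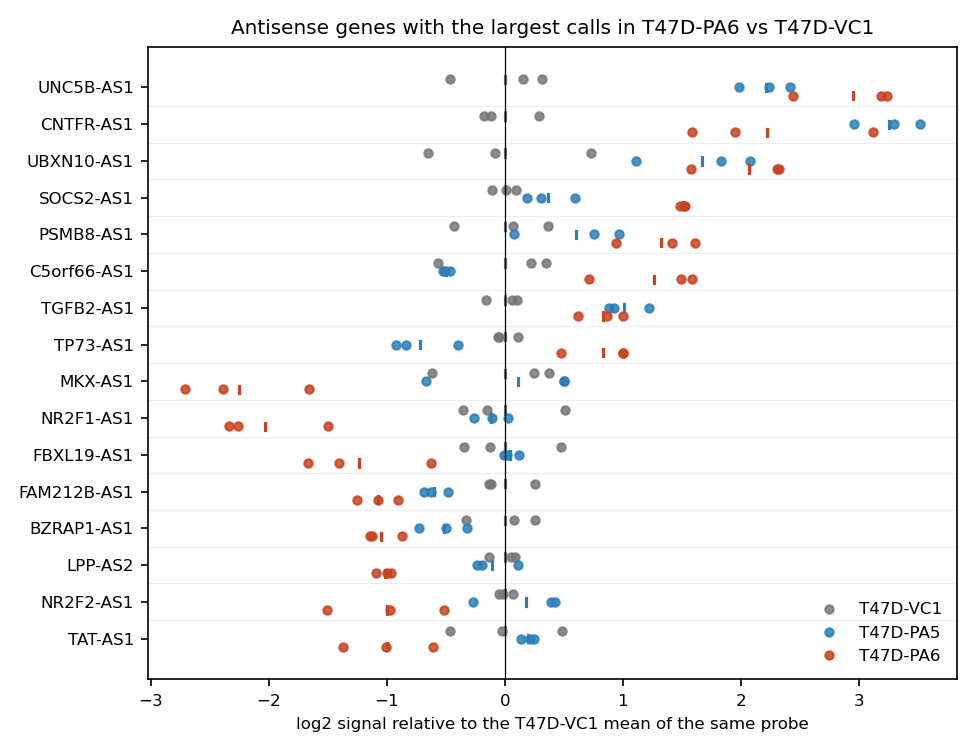
Log2 signal of each array relative to the T47D-VC1 mean of the same probe (x axis) for the 8 largest rises and 8 largest falls in T47D-PA6 against T47D-VC1 among genes above background on all 9 arrays (y axis), with 1 point per array and a short bar at the mean of the 3 arrays of a line. UNC5B-AS1, CNTFR-AS1, UBXN10-AS1 and TGFB2-AS1 stand to the right in both T47D-PA5 and T47D-PA6, while SOCS2-AS1, MKX-AS1 and NR2F1-AS1 are displaced mainly in T47D-PA6.

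Among the falls, MKX-AS1 is antisense to mohawk, a homeobox transcription factor of tendon. Its signal was 69.5, 138 and 126 in T47D-VC1 cells, 66.9, 150 and 150 in T47D-PA5 cells and 33.6, 20.3 and 16.3 in T47D-PA6 cells. All T47D-PA6 arrays were below the others, and the other 2 lines overlapped. The log2 fold change was −2.25 ± 0.41 (limma adjusted p = 0.0136), −1.05 in the earlier run and −2.86 in the later one. MKX fell with it, by 1.38 ± 0.23 (log2, limma adjusted p = 0.00967), from 156, 252 and 236 to 102, 73.3 and 70.7. The 13 other genes within 1 Mb had a median of −0.26, with 1 called lower and 1 higher.

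NR2F1 and NR2F2 are related orphan nuclear receptors, also called COUP transcription factors. NR2F1-AS1 had signals of 182, 115 and 100 in T47D-VC1 cells, 106, 119 and 130 in T47D-PA5 cells and 45.2, 26.7 and 25.3 in T47D-PA6 cells. The T47D-PA6 arrays were lowest without overlap, with a log2 fold change of −2.03 ± 0.27 (limma adjusted p = 0.00398) and −2.40 on its other probe. NR2F1 had signals of 309, 158 and 193 in T47D-VC1 against 182, 39.0 and 42.6 in T47D-PA6, so 1 array overlapped and the log2 fold change of −1.65 ± 0.54 did not pass the test (limma adjusted p = 0.0914). NR2F2-AS1 fell by 1.002 (adjusted p = 0.0486, but 0.0703 with the replicate number as a block), with −0.02 on its other probe, so the fall was seen on 1 probe only. NR2F2 overlapped between all lines, with 5885, 4371 and 4645 in T47D-VC1 and 6571, 4969 and 4711 in T47D-PA6.

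The remaining large falls had a partner that did not pass the test. FBXL19-AS1, antisense to an F-box protein, fell by 1.23 on the log2 scale (adjusted p = 0.0324), but its other probe gave −0.22, and FBXL19 had −0.50. FAM212B-AS1, antisense to the kinase inhibitor gene now called INKA2, fell by 1.08 (adjusted p = 0.00368), with −1.005 on its other probe, while FAM212B had −0.13. LPP-AS2, which starts back to back with the focal adhesion gene LPP, went from 61.3, 54.0 and 62.8 in T47D-VC1 to 29.7, 27.8 and 30.3 in T47D-PA6, a log2 fold change of −1.02 ± 0.12 (limma adjusted p = 0.00237), and LPP had −0.36. TAT-AS1, antisense to the liver enzyme tyrosine aminotransferase, fell by 0.996 (adjusted p = 0.0442) with TAT not tested. FRMD6-AS1, which was not above background on any T47D-PA6 array, was at least 1.78-fold lower there than in T47D-VC1, the line through which alone it was included, so no test is given. When each of the 9 arrays was left out in turn, UNC5B-AS1, CNTFR-AS1, SOCS2-AS1, NR2F1-AS1, FAM212B-AS1, BZRAP1-AS1 and LPP-AS2 were called every time. TGFB2-AS1 lost its call without T47D-PA6 replicate 3 (adjusted p = 0.051), UBXN10-AS1 without T47D-VC1 replicate 3, T47D-PA6 replicate 2 or T47D-PA6 replicate 3 (up to 0.0632), and MKX-AS1 without those or T47D-VC1 replicate 2 (up to 0.0591). C5orf66-AS1 lost its call in 5 of the 9 omissions (up to 0.104), TP73-AS1 and FBXL19-AS1 in 6 (up to 0.106 and 0.109), and NR2F2-AS1 and TAT-AS1 in 7 (up to 0.137 and 0.143).

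The design also asked whether a called antisense gene came with a called sense gene. In T47D-PA6 against T47D-VC1, 36 called antisense genes had a tested partner, and in 6 pairs both genes were called. That is 16.7% of the 36, beside 12.02% of all 366 tested partners, 44 genes. Of the 44, FGD5 and LINGO1 passed the detection rule through T47D-PA6 alone and LHX4 was above background in neither line, and all 6 pairs were free of such genes. In 4 pairs the genes moved the same way, both higher for UNC5B and PSMB8 and both lower for MKX and STX17, and in 2 pairs, BZRAP1 and VPS13A, they moved oppositely. The other 30 antisense calls had an uncalled partner, and 38 called sense genes had an uncalled antisense gene. The number of pairs rose to 20 with the scan run as a block and fell to 1 without T47D-VC1 replicate 3. PSMB8-AS1 lost its call without T47D-VC1 replicate 1 or 3 or T47D-PA6 replicate 2 or 3 (adjusted p up to 0.0993), and UNC5B without replicate 3 of either line (up to 0.0554).

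STX17 encodes a SNARE protein needed to fuse autophagosomes with lysosomes, and STX17-AS1 is now called STX17-DT. The antisense signal was 365, 473 and 504 in T47D-VC1 and 289, 206 and 207 in T47D-PA6, a log2 fold change of −0.94 ± 0.24 (limma adjusted p = 0.0425, but 0.0544 with the replicate number as a block). STX17 fell by 0.75 ± 0.15 (limma adjusted p = 0.0175), from 124, 144 and 139 to 99.6, 72.9 and 71.9. Of 7 other genes within 1 Mb on chromosome 9, 5 were called lower, with a median of −0.84, in the direction of the pair. On chromosome 9 as a whole, 16.35% of 844 tested genes were called lower, with a median of −0.21, beside 5.34% of all genes tested. The part of this wider shift in the STX17 and VPS13A pairs was not tested. Without replicate 2 or 3 of T47D-VC1 or T47D-PA6 neither gene was called, and STX17-AS1 was not called without T47D-PA5 replicate 2 or 3 either (adjusted p up to 0.143).

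VPS13A, on the same chromosome, encodes a protein that transfers lipids between membranes. VPS13A-AS1 had signals of 44.7, 41.1 and 39.3 in T47D-VC1 cells, 39.1, 47.2 and 39.1 in T47D-PA5 cells and 80.2, 57.4 and 59.8 in T47D-PA6 cells. Only the T47D-PA6 arrays stood apart, and they were higher (log2 fold change 0.64 ± 0.15, limma adjusted p = 0.0323). VPS13A went the other way, from 764, 633 and 645 in T47D-VC1 to 446, 360 and 377 in T47D-PA6 (log2 fold change −0.79 ± 0.14, limma adjusted p = 0.013), with −1.21 on its other probe. The 3 other genes within 1 Mb had a median of −0.58, and 2 of them were called lower, so the antisense gene differed in direction from its partner and from that median. Its call was lost in 5 of the 9 omissions of an array (adjusted p up to 0.115) and with normexp background correction (0.109), and that of VPS13A without T47D-PA6 replicate 2 or 3 (up to 0.0589).

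BZRAP1, now called TSPOAP1, encodes a scaffold protein of presynaptic terminals. BZRAP1-AS1 had signals of 39.3, 26.2 and 34.8 in T47D-VC1 cells, 23.3, 26.4 and 19.9 in T47D-PA5 cells and 17.97, 15.1 and 14.9 in T47D-PA6 cells. The T47D-PA6 arrays were lowest, and their log2 fold change against T47D-VC1 was −1.05 ± 0.17 (limma adjusted p = 0.00967), with −0.64 on the other probe. BZRAP1 rose, from 21.1, 15.2 and 15.5 to 36.1, 42.0 and 37.4 (log2 fold change 1.17 ± 0.14, limma adjusted p = 0.00241). In T47D-PA5 BZRAP1 was above background on 0 of 3 arrays, so T47D-PA6 was at least 2.96-fold higher than that line (adjusted p = 0.000179). Both calls against T47D-VC1 held when any 1 array was left out.

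**Figure D2:**
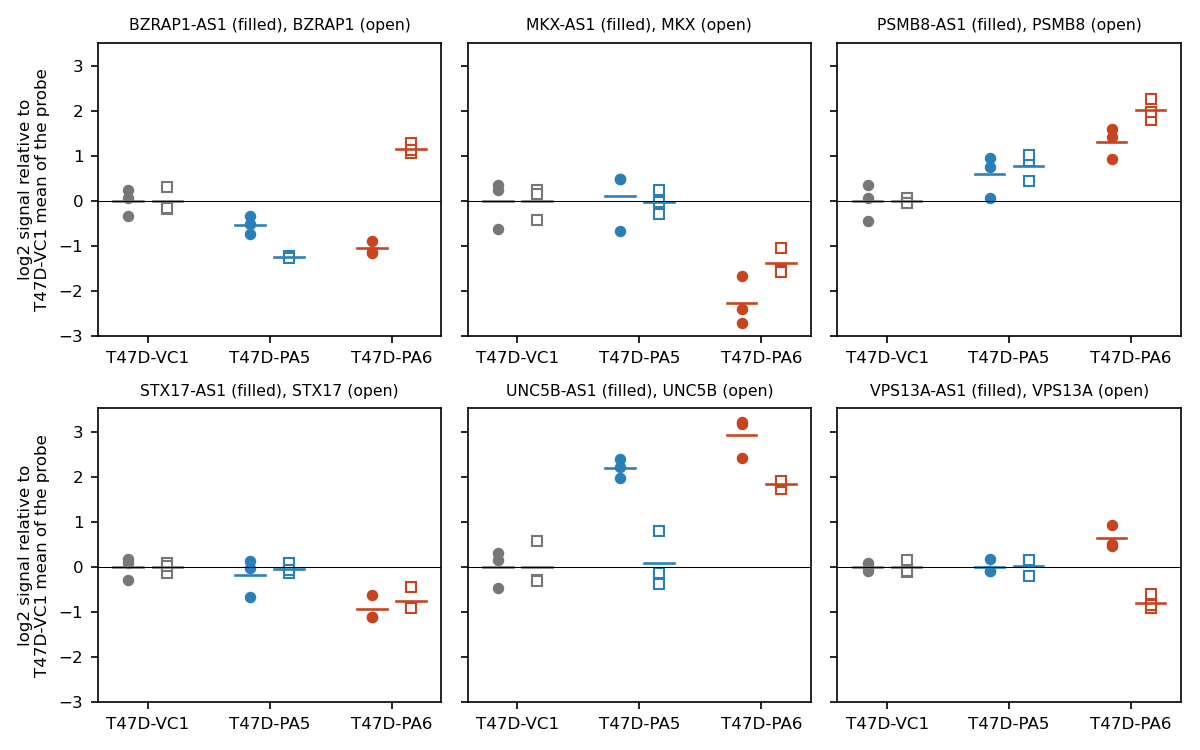
Log2 signal of each array relative to the T47D-VC1 mean of the same probe (y axis) in the 3 lines (x axis) for the 6 pairs with both genes called in T47D-PA6 against T47D-VC1, with filled circles for the antisense gene, open squares for the sense gene and a bar at the mean of 3 arrays. The circles and squares shift the same way in T47D-PA6 for UNC5B, PSMB8, MKX and STX17 and opposite ways for BZRAP1 and VPS13A. BZRAP1 in T47D-PA5 was not well above background.

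The second comparison set the line with incomplete PTH-AS against the vector control. CNTFR-AS1, UNC5B-AS1, TGFB2-AS1, RUNDC3A-AS1 and FLVCR1-AS1 rose, and RERG-AS1 and JARID2-AS1 fell. All 7 were above background on all 9 arrays. The 5 higher made 1.30% of the 386 and 1.16% of the 432, against 1.17% of the 18244 and 1.37% of the 20099 genes tested. The 2 lower made 0.518% and 0.463%, against 0.214% and 0.299%. The median log2 fold change of the 386 was −0.04, beside −0.03 over all such genes. An unadjusted p under 0.05 was found for 83 of the 432, again without a count over all genes. With the scan run as a block 26 were called, and without T47D-VC1 replicate 3, T47D-PA5 replicate 2 or T47D-PA5 replicate 3 the number was 3. Both comparisons with T47D-VC1 share its 3 arrays, so their values are not independent.

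CNTFR-AS1 rose most, by 3.26 ± 0.36 (log2, limma adjusted p = 0.00478), 2.67 in the earlier run and 3.56 in the later one. CNTFR was at 44.5, 50.6 and 45.5 in T47D-PA5, above the 3 control arrays, but its log2 fold change of 1.51 ± 0.38 did not pass the test (limma adjusted p = 0.101). Since CNTFR was not above background on all 9 arrays, this value is a description. UNC5B-AS1 rose by 2.21 ± 0.27 (limma adjusted p = 0.00701) while UNC5B had a log2 fold change of 0.11 (adjusted p = 0.921). UNC5B-AS1 was thus raised in both transfected lines and its partner in T47D-PA6 only, where the difference between the lines was itself called (UNC5B in T47D-PA6 over T47D-PA5, log2 fold change 1.75 ± 0.33, limma adjusted p = 0.0152). TGFB2-AS1 had signals of 41.1, 49.4 and 48.0 in T47D-VC1 and 107.2, 87.5 and 85 in T47D-PA5, a log2 fold change of 1.01 ± 0.14 (limma adjusted p = 0.0142).

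RERG encodes a small GTPase that is induced by estrogen and slows growth. RERG-AS1 went from 291, 348 and 330 in T47D-VC1 to 181, 168 and 178 in T47D-PA5 and 180, 174 and 190 in T47D-PA6. Both transfected lines lay below the control and overlapped each other (T47D-PA5 log2 fold change −0.87 ± 0.10, limma adjusted p = 0.00519). The gene's other probe gave −0.73 in T47D-PA5 but 0.05 in T47D-PA6, so its fall in T47D-PA6 (−0.83, adjusted p = 0.00248) was seen on 1 probe only. JARID2-AS1, which starts back to back with a Polycomb cofactor, had 144, 167 and 143 in T47D-VC1 and 90.8, 101 and 80.2 in T47D-PA5 (log2 fold change −0.75 ± 0.12, limma adjusted p = 0.0253). JARID2 had a log2 fold change of 0.27 there (adjusted p = 0.325). RUNDC3A-AS1 rose by 0.70 (adjusted p = 0.038), with 118, 131 and 137 in T47D-VC1 and 175, 232 and 222 in T47D-PA5. CNTFR-AS1, UNC5B-AS1 and RERG-AS1 were called whichever array was left out, TGFB2-AS1 lost its call in 3 of the 9 omissions (adjusted p up to 0.0624), JARID2-AS1 in 5 (up to 0.117), RUNDC3A-AS1 in 7 (up to 0.16) and FLVCR1-AS1 in 8 (up to 0.146). Of 6 called antisense genes with a tested partner, 0 had a called partner by limma, beside 5 of all 366 partners (1.37%), 1 of them FGD5, which passed the detection rule in neither of these lines.

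The third comparison set the lines with full-length and incomplete PTH-AS against each other. In it 8 pairs had both genes called, and 5 of them lay on chromosome 1. Without the LHX4 pair, whose sense gene was tested through T47D-PA5 alone, these were 7 and 4. In T47D-PA6, 12 of the 386 genes were called higher (3.11%) and 25 lower (6.48%), against 3.31% and 5.84% of the 18244. Over the 432 the counts were 13 higher (3.01%) and 25 lower (5.79%), against 3.65% and 6.06% of the 20099. The median log2 fold change was −0.00, beside 0.00 over all such genes. An unadjusted p under 0.05 was found for 100 of the 432, again without a count over all genes. With the scan run as a block 76 were called, without T47D-PA6 replicate 1 the number was 65, and without replicate 2 or 3 of T47D-PA5 or T47D-PA6 it was 12 to 15.

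The largest rises over T47D-PA5 were those of C5orf66-AS1, TP73-AS1, SOCS2-AS1, SCAMP1-AS1 and EPB41L4A-AS1. C5orf66-AS1, now called EPIST, had signals of 288, 297 and 285 in T47D-PA5 and 671, 1154 and 1228 in T47D-PA6, with 276, 519 and 478 in the control (log2 fold change over T47D-PA5 1.76 ± 0.28, limma adjusted p = 0.00849). TP73-AS1 had 35.7, 51.3 and 37.9 in T47D-PA5 against 94.0, 136 and 136 in T47D-PA6 (1.55 ± 0.19, limma adjusted p = 0.00324), with the control between them at 65.0, 65.2 and 72.9. Their partners C5orf66 and TP73 had log2 fold changes of 0.04 and −0.08. SCAMP1-AS1, antisense to a secretory carrier membrane protein, rose by 0.86 (adjusted p = 0.0183) while SCAMP1 had 0.15.

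Among the falls, BFSP2-AS1, antisense to a lens filament protein, had signals of 238, 269 and 278 in T47D-PA5 and 64.8, 61.6 and 56.4 in T47D-PA6. The control had 59.2, 127 and 164 and overlapped T47D-PA6 on 1 array, and the log2 fold change over T47D-PA5 was −2.10 ± 0.32 (limma adjusted p = 0.00708). BFSP2 had 0.35 (adjusted p = 0.374). LGALS8-AS1, whose 5′ end overlaps that of galectin-8, fell by 1.35 (adjusted p = 0.0244), with −0.35 in the earlier run and −1.85 in the later one, and LGALS8 had 0.03. MKX-AS1 (−2.36) and NR2F1-AS1 (−1.92) were lower than in T47D-PA5 as they were against the control. SCAMP1-AS1 and LGALS8-AS1 lost their calls in 4 of the 9 omissions of an array (adjusted p up to 0.0689 and 0.095) and EPB41L4A-AS1 in 7 (up to 0.143), while C5orf66-AS1, TP73-AS1, SOCS2-AS1, BFSP2-AS1, MKX-AS1 and NR2F1-AS1 were called in all 9.

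Of 33 called antisense genes with a tested partner, 8 had a called partner, 24.2%, beside 11.7% of all 366 partners, 43 genes. In 6 pairs both genes were lower in T47D-PA6, in the EPB41L4A pair both were higher, and in the VPS13A pair they were opposite. Of the 8 pairs, 5 lay on chromosome 1, namely FLVCR1, RASAL2, RUSC1, ASH1L and LHX4, all lower in T47D-PA6. The calls of LHX4 and of CFAP58, 2 of the 43 partners, rest on the line through which alone they passed the detection rule, and without LHX4 there were 7 pairs, 5 of them lower and 4 on chromosome 1. With the replicate number as a block 13 pairs had both genes called, and without T47D-PA5 replicate 2, T47D-PA5 replicate 3, T47D-PA6 replicate 2 or T47D-PA6 replicate 3 the number was 1. FLVCR1-AS1, ASH1L-AS1, MKX-AS1 and MKX were called whichever array was left out. The calls of LHX4-AS1 and RASAL2-AS1 were lost in 4 of the 9 omissions (adjusted p up to 0.0991 and 0.065), that of EPB41L4A in 4 (up to 0.08), those of FLVCR1 and RASAL2 in 5 (up to 0.0866 and 0.0948), that of ASH1L in 6 (up to 0.101) and those of RUSC1-AS1, VPS13A-AS1 and EPB41L4A-AS1 in 7 (up to 0.161, 0.114 and 0.143). RUSC1 and VPS13A lost theirs in 3 (up to 0.0639 and 0.0515).

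FLVCR1, a membrane transporter of heme and choline, starts back to back with FLVCR1-AS1, now called FLVCR1-DT. FLVCR1-AS1 had signals of 270, 310 and 316 in T47D-VC1 cells, 519, 462 and 448 in T47D-PA5 cells and 226, 193 and 170 in T47D-PA6 cells. The 3 lines did not overlap, with T47D-PA5 above the control (log2 fold change 0.67, limma adjusted p = 0.0455, but 0.0609 with the replicate number as a block) and T47D-PA6 below it (−0.61, adjusted p = 0.0244). The difference between T47D-PA6 and T47D-PA5 was −1.28 ± 0.13 (limma adjusted p = 0.00205). FLVCR1 fell by 0.93 ± 0.19 (limma adjusted p = 0.0215), from 2237, 1868 and 1986 in T47D-PA5 to 1175, 976 and 1044 in T47D-PA6. The 14 other genes within 1 Mb had a median of −0.57, and 10 were called lower.

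RASAL2, a GTPase-activating protein for Ras, and RUSC1, a signalling adaptor, also start back to back with their antisense genes. RASAL2-AS1 went from 77.9, 97.4 and 98.6 in T47D-PA5 to 49.9, 47.2 and 43.1 in T47D-PA6 (log2 fold change −0.96 ± 0.18, limma adjusted p = 0.0149) and RASAL2 had −0.92 ± 0.20 (limma adjusted p = 0.0241). The other 2 RASAL2 probes gave −0.99 and 0.03. RUSC1-AS1 fell by 0.73 ± 0.19 (limma adjusted p = 0.0478), with −0.21 on its other probe, and RUSC1 by 0.74 ± 0.14 (limma adjusted p = 0.016). ASH1L-AS1, whose 5′ end overlaps that of the histone methyltransferase gene ASH1L, fell by 0.69 ± 0.11 (limma adjusted p = 0.00839), with −0.59 on its other probe, and ASH1L by 0.70 ± 0.16 (limma adjusted p = 0.0282). LHX4-AS1, named after a LIM homeobox transcription factor, fell by 0.64 ± 0.14 (limma adjusted p = 0.0243). LHX4 was above background on all T47D-PA5 arrays and on no other array, and was at least 1.57-fold lower in T47D-PA6. It was tested because of its T47D-PA5 level, so this value is a description.

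Other genes around these pairs were called lower as well. Within 1 Mb, 6 other genes of RASAL2 had a median of −0.36 with 2 called lower, 63 of RUSC1 had −0.66 with 34 lower, 67 of ASH1L had −0.64 with 35 lower, and 17 of LHX4 had −0.59 with 11 lower. The RUSC1 and ASH1L windows share most of their genes. On chromosome 1 as a whole 22.6% of 2023 tested genes were called lower in T47D-PA6 than in T47D-PA5, and of its 39 antisense genes 8 were called lower and 1 higher. Chromosome 9, which holds the VPS13A pair, had 14.57% of 844 tested genes called lower, beside 6.06% of all genes tested. The part of a regional shift in these pairs was not tested. Off chromosome 1, the 13 other genes around MKX had a median of −0.11 and the 9 around EPB41L4A one of −0.05, while MKX-AS1 and MKX fell by 2.36 and 1.36 and EPB41L4A-AS1 and EPB41L4A, a band 4.1 family gene, rose by 0.86 and 0.62.

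**Figure D3:**
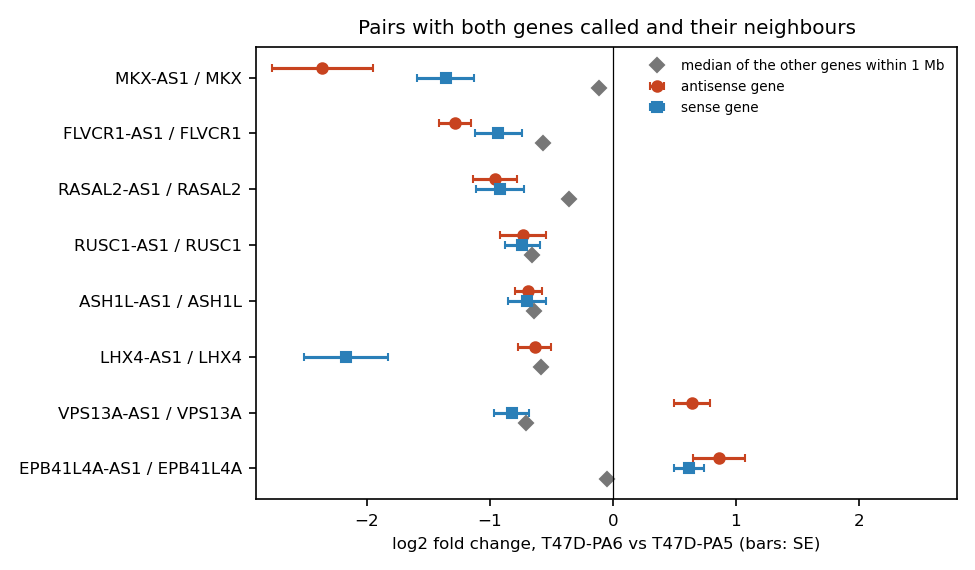
Log2 fold change of T47D-PA6 over T47D-PA5 (x axis) for the 8 pairs with both genes called (y axis), with circles for the antisense gene, squares for the sense gene, bars for the SE and diamonds for the median of the other genes within 1 Mb. The diamonds of FLVCR1, RASAL2, RUSC1, ASH1L and LHX4 lie between −0.66 and −0.36 and those of MKX and EPB41L4A near 0. The LHX4 value rests on T47D-PA6 arrays not above background and stands for a bound.

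Because 3 of these pairs share a stretch of DNA between their starts, that stretch is shown, with capitals for matches to the motif GGGCGG (the core of a GC box) or CCAAT on either strand. Sequences are from RefSeq, build GRCh38.p14, plus strand, which is the strand of the sense gene in all 3. The stretch of FLVCR1 is chr1:212858138-212858274, that of RASAL2 chr1:178093993-178094103 and that of RUSC1 chr1:155323845-155323936.
FLVCR1: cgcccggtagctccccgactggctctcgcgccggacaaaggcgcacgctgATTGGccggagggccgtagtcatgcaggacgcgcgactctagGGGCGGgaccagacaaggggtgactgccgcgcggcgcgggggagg
RASAL2: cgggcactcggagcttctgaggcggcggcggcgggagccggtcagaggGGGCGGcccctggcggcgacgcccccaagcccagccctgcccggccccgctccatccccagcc
RUSC1: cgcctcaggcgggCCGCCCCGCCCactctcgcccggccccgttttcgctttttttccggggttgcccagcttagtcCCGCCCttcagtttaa

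The stretch of FLVCR1 had 137 bases, a GC content of 73.0%, 1 match to GGGCGG and 1 to CCAAT. That of RASAL2 had 111 bases, 81.1% GC and 1 match to GGGCGG, and that of RUSC1 had 92 bases, 66.3% GC and 3 matches to GGGCGG, of which the first 2 overlap. Neither of these held CCAAT. Among 35116 RefSeq promoter windows cut to the same lengths, 35.7%, 32.9% and 30% held GGGCGG and 22.3%, 19.5% and 16.9% held CCAAT, and the median GC content was between 59.9% and 60.9%. These matches describe the letters only.

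Across pairs, the log2 fold changes of antisense and sense genes were weakly related. Over the 309 pairs on opposite strands with both genes above background on all 9 arrays, Pearson's r was 0.35 and Spearman's rho 0.16 for T47D-PA6 against T47D-VC1, 0.25 and 0.18 for T47D-PA5 against T47D-VC1, and 0.28 and 0.22 for T47D-PA6 against T47D-PA5. The signs matched in 55.7%, 56.3% and 57.9% of pairs. In the 103 divergent pairs Pearson's r was 0.40, 0.39 and 0.43 and Spearman's rho 0.21, 0.18 and 0.25. In the 40 pairs with overlapping 5′ ends rho was 0.10, 0.36 and 0.25, and in the 68 with the antisense start further inside or beyond the sense gene it was 0.13, 0.00 and 0.21. The antisense gene's rho with the median of the other genes within 1 Mb was 0.22, 0.12 and 0.33. These are descriptions across pairs that share the same arrays and, in places, the same stretch of chromosome, and the difference between arrangements was not tested.

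**Figure D4:**
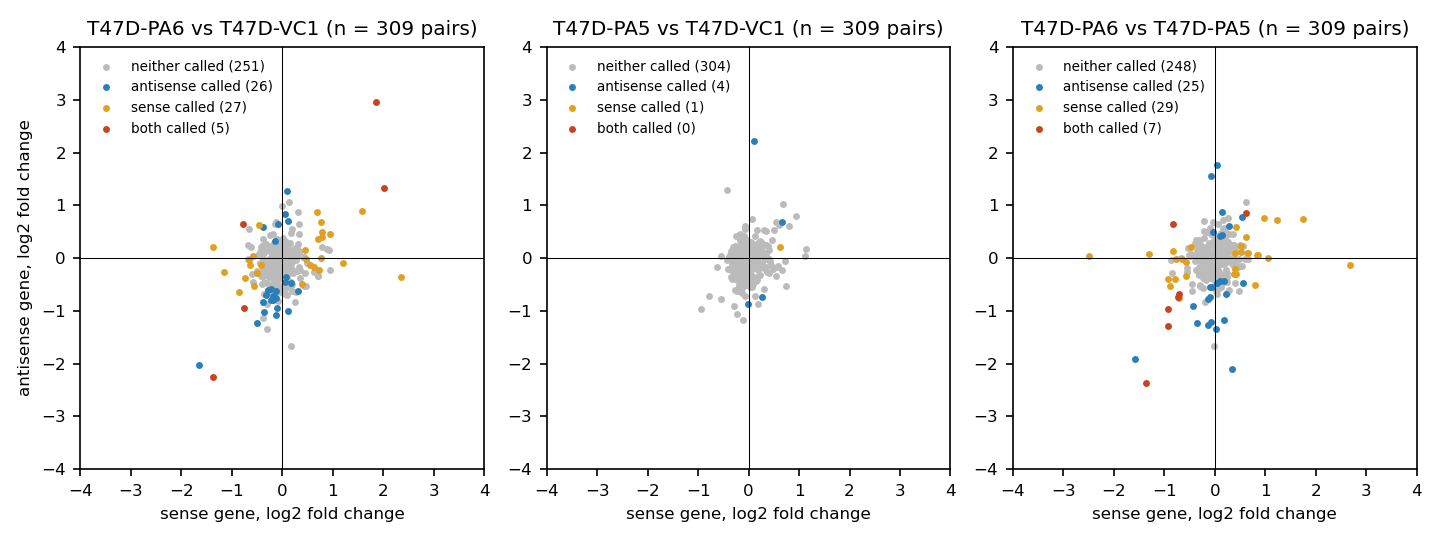
Log2 fold change of the antisense gene (y axis) against that of its sense gene (x axis) in the 3 comparisons, with 1 point for each of 309 pairs on opposite strands with both genes above background on all 9 arrays, coloured by which of the pair was called. Most points form a round cloud about 0, and the few pairs with both genes called lie mostly in the lower left and upper right.

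FGD5, a guanine nucleotide exchange factor for CDC42, was detected on all arrays of T47D-PA6 alone, and its values describe the detection that chose it. FGD5-AS1 had signals of 7523, 6696 and 6433 in T47D-VC1 and 5724, 5312 and 5545 in T47D-PA6, and its log2 fold change of −0.31 ± 0.09 did not pass the test (limma adjusted p = 0.0702). FGD5 was above background on 0 of 3 T47D-VC1 arrays, 2 T47D-PA5 arrays and 3 T47D-PA6 arrays. T47D-PA6 exceeded T47D-VC1 by at least 2.58-fold.

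Of 22 antisense genes listed because they are well known in cancer or in luminal cells, 15 were expressed. Among them PSMB8-AS1 alone was called in T47D-PA6 against T47D-VC1, and none in the other comparisons with limma. Of all genes tested, 4.69% were called higher and 5.34% lower in the first comparison. These shares were 1.37% and 0.299% in T47D-PA5 against T47D-VC1 and 3.65% and 6.06% in T47D-PA6 against T47D-PA5. GATA3-AS1, which starts back to back with the luminal transcription factor GATA3, had signals of 63690, 31720 and 37270 in T47D-VC1 cells, 30090, 38970 and 36040 in T47D-PA5 cells and 41980, 31750 and 32900 in T47D-PA6 cells, and the lines overlapped (log2 fold change −0.26 ± 0.25 in T47D-PA6, limma adjusted p = 0.566). DSCAM-AS1, a lncRNA of estrogen receptor-positive breast cancer, had 16870, 9532 and 10850 in T47D-VC1 and 9937, 6445 and 6592 in T47D-PA6, with 1 overlapping array (−0.68 ± 0.25, adjusted p = 0.121). In both genes T47D-VC1 replicate 1 was the highest array. OIP5-AS1, also known as Cyrano, overlapped between all lines (−0.01 in T47D-PA6). MCM3AP-AS1 had −0.59 (adjusted p = 0.0573). Apart from FGD5-AS1, the others had log2 fold changes in T47D-PA6 of −0.02 for HOXB-AS1, 0.39 for HOXB-AS3, −0.19 for CDKN2B-AS1 (ANRIL), −0.06 for ZEB1-AS1, −0.05 for HIF1A-AS1, 0.15 for GAS6-AS1, −0.35 for TMPO-AS1, 0.68 for MAPT-AS1 and 0.12 for PCBP1-AS1.

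A list made from the names of transcription factors and their regulators held 45 antisense genes. Of these, 5 are named after the HOXB and HOXC clusters and have no single sense gene, and 3 belong to the PAX-interacting proteins PAXBP1 and PAXIP1, which leaves 37. In T47D-PA6 against T47D-VC1, 0 of the 37 were called higher and 5 lower, those of NR2F1, NR2F2, TBX2, ZNF337 and ZSCAN16, beside 4.69% and 5.34% of all genes tested, with a median of −0.07. Of 31 sense genes tested themselves, FOXD2 and ID2 were higher and FOXN3 was lower, LHX4 was above background in neither line and is not counted, and none of the 5 antisense genes had a called partner. Against T47D-PA5, 1 of the 37 antisense genes was higher and 3 lower in T47D-PA6, beside 3.65% and 6.06% of all genes tested. In T47D-PA5 against T47D-VC1 limma called 0 in either direction, beside 1.37% of all genes higher and 0.299% lower. Of 12 antisense genes of mostly cell cycle and DNA repair genes, without the vacuolar ATPase subunit gene ATP6V0E2 that the list also held, TP73-AS1 was called higher in T47D-PA6 and no other, and of their 11 tested partners limma called 0 in any comparison. The interferon and antigen presentation list held 1 pair, that of PSMB8.

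Genes that act on antisense RNA or on RNA duplexes were read from lists of their own. A nuclear RNA decay list held 20 tested genes, subunits and cofactors of the exosome among them. In T47D-PA6 against T47D-VC1, 0 were called higher and 1 lower, beside 4.69% and 5.34% of all genes tested. The lower gene was the exonuclease XRN2 (log2 fold change −0.50 ± 0.12, limma adjusted p = 0.0328), and the median was 0.04. The list's MPP6, not called, is by its array name a membrane scaffold gene. It is not the exosome cofactor MPHOSPH6, which was not read. Of 18 genes that sense, edit or cut double-stranded RNA, 6 were called higher, the editing enzyme ADAR (0.76), the kinase EIF2AK2 (2.09) and the sensors IFIH1 (2.29), DDX58 (1.83), DHX58 (1.86) and TLR3 (2.15), and the helicase DHX9 was lower (−0.57), beside 4.69% of all genes higher and 5.34% lower. The first 6 are also interferon-induced genes. TLR3 was above background on 1 of 3 T47D-VC1 arrays and on all 3 of each transfected line, so its fold change rests on a control level near background. In T47D-PA5 against T47D-VC1, ADAR (0.78) and EIF2AK2 (1.04) were called higher and none lower, beside 1.37% of all genes higher and 0.299% lower. The median over the 18 was 0.06 in T47D-PA6 and 0.14 in T47D-PA5.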

How the data were processed

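The authors hybridised Cy3-labelled cRNA of 50 ng total RNA to one-colour 60K Agilent arrays and deposited, for each array, the background-subtracted spot intensity from Feature Extraction (version 10.7.1.1 in the file headers, 9.5.1.1 in the submitters' processing notes) with its detection and outlier flags. They also deposited intensities quantile-normalized in R, which served to choose 1 probe per name and as an alternative. Outlier spots were left out, spots of a probe averaged on the log2 scale and arrays quantile-normalized. Signals in the text are these normalized intensities. The 26172 probes above background on all 3 arrays of a line gave 20099 genes, 1 probe each with the highest mean. They were fitted by line with limma 3.58.1 in R 4.3.3 (lmFit, eBayes, 6 residual degrees of freedom), p-values were adjusted by Benjamini-Hochberg over all 20099, and under 0.05 was called. The fit was tested on simulated data.

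Nothing says whether the 3 arrays of a line came from separate cultures, so p-values measure the spread between these arrays, which may be technical, and the number of arrays limits the precision. Replicate numbers come from the sample titles. Deviations of same-numbered arrays correlated at 0.132 to 0.337 between T47D-PA6 and T47D-VC1 and 0.165 to 0.272 between T47D-PA6 and T47D-PA5. Between T47D-PA5 and T47D-VC1 they correlated at 0.0997 to 0.210. Arrays of the later run with different numbers correlated as well, at 0.244 and 0.260 between T47D-VC1 and T47D-PA6. Arrays of different scan runs correlated negatively. The main fit holds no pairing, and the replicate number was a block in an alternative only. A line with 0 arrays above background gives a bound on the fold, set against the higher of its signal and the lowest signal above background on each array. Genes were matched to the RefSeq table by symbol (344), accession (76) or synonym (11). The members, lists and tests were chosen with earlier results of these data known. Named are, for genes above background on all 9 arrays, the 8 largest rises and falls in T47D-PA6 against T47D-VC1 and the 5 largest in the other comparisons, all pairs with both genes called, up to 6 bounds, and a list of 22 well-known antisense genes. TBX2, ZNF337, ZSCAN16, FOXD2, ID2, FOXN3, HNRNPU-AS1, LINGO1, CFAP58 and the list genes were named, and 2 lists trimmed by gene function, after their values were seen. No test is given for a gene that passed the detection rule only through the line where it was high. Alternatives changed the normalization, background correction, filter, probe choice, names, blocks, test and arrays used.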

Additional observations from a re-analysis of the deposited data

Results flagged for a closer look

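FLVCR1-AS1 moved in opposite directions in the transfected lines. Against T47D-VC1 it was higher on every T47D-PA5 array and lower on every T47D-PA6 array, and the difference between these changes, tested as T47D-PA6 against T47D-PA5, was −1.28 on the log2 scale (limma adjusted p = 0.00205), with −1.20 in the earlier scan run and −1.33 in the later one. That difference was called under all 24 alternatives, with values from −1.39 to −1.05, but the rise in T47D-PA5 over T47D-VC1 was called under 11 of the 24 (adjusted p up to 0.146). No other named antisense gene was called in opposite directions in the comparisons with T47D-VC1.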

How the results depend on the processing

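Counts of calls moved with the model far more than the directions of the named called genes did. Calls over all genes were not counted under the alternatives, so their counts show nothing particular to antisense genes. Fitted by line, the arrays called 41 antisense genes in T47D-PA6 against T47D-VC1, 7 in T47D-PA5 against T47D-VC1 and 38 in T47D-PA6 against T47D-PA5, and 6, 0 and 8 pairs. With the scan run as a block these were 90, 26 and 76 genes and 20, 3 and 18 pairs. On the later scan run alone, an alternative chosen after seeing the data, with the 2 arrays per line of that run, they were 170, 83 and 149 genes and 62, 22 and 51 pairs. With no filter on dim probes they were 21, 4 and 20 genes, with 2 pairs in the first comparison, and 1 pair in T47D-PA6 against T47D-PA5. The unpaired t test named in the paper's general statistics gave 90, 65 and 93 genes at its unadjusted threshold. After Benjamini-Hochberg adjustment it gave 8, 1 and 13 genes, with 0 pairs in the first comparison and 1 pair in T47D-PA6 against T47D-PA5. For the arrays the paper defined changes by fold thresholds instead. Fits of the compared lines alone called 23 genes in the first comparison and 4 in the second, with 1 pair in the second. The slide as a block called 17 genes higher and 31 lower in the first comparison, 33 of them main calls in the same direction. It called 11 genes in the second comparison. In T47D-PA6 against T47D-PA5 it called 13 higher and 28 lower, 27 of them main calls in the same direction. The mean of a name's probes gave 11 pairs in the first comparison. With the replicate number as a block 57, 10 and 54 genes were called, and 13 pairs in T47D-PA6 against T47D-PA5. The same block ended the calls of NR2F2-AS1, STX17-AS1 and, in T47D-PA5, FLVCR1-AS1, and made one of PSMB8-AS1 over T47D-PA5 (adjusted p = 0.0162), and it changed no other named call.

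Leaving out each array in turn gave 12 to 66, 3 to 10 and 12 to 65 genes and 1 to 15, 0 to 1 and 1 to 17 pairs. The highest counts of both comparisons with T47D-PA6 came without T47D-PA6 replicate 1 (66 and 65). In the first, 21 genes were called without T47D-VC1 replicate 2, 15 without replicate 3, 24 without T47D-PA5 replicate 3, and 14 and 12 without T47D-PA6 replicates 2 and 3. In the second, 4 were called without T47D-VC1 replicate 2 or T47D-PA6 replicate 2. In T47D-PA6 against T47D-PA5, 13 and 15 were called without T47D-PA5 replicates 2 and 3, and 12 and 15 without T47D-PA6 replicates 2 and 3. The cause of these shifts was not tested. Over all named genes and alternatives, 3276 values stayed called with the same sign or stayed uncalled within 1 SE of the main value. A change of sign between uncalled values was not counted. Another 272 values lost and 69 gained the call, and 66 stayed uncalled but moved by more than 1 SE. The other 3, uncalled in the main fit, turned sign and were called on the later run alone. These were RERG (0.27) and GATA3 (0.29) in T47D-PA5 against T47D-VC1 and TMPO (0.25) in T47D-PA6 against T47D-PA5. Other scalings moved the median of all genes by 0.01 or less on the log2 scale. Many antisense probes lie near background, where signal limits the fold that can be measured.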
